A study of Mus musculus with 12 samples.

Results

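Growing axons and migrating cells in the embryonic brain steer by guidance cues that other cells secrete or carry on their surface. The 4 classical systems are slits with their Robo receptors, netrins with Dcc and the Unc5 receptors, semaphorins with plexins and neuropilins, and ephrins with Eph receptors. Most cues repel or attract depending on which receptors a cell carries, and several receptors of these families are also made by dividing progenitors and by blood vessels. The genes described here are the 68 mouse genes of these families, chosen by gene symbol, that had a probe set naming that gene alone, out of 19938 genes with such a probe set. They comprise 20 semaphorins, 9 plexins, 2 neuropilins, 8 ephrins, 13 Eph receptors, 3 slits, 4 Robo receptors, 4 netrins, and 5 genes for Dcc and the Unc5 receptors.

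RNA was measured on 12 arrays of forebrain from mice on postnatal day 0, with 3 biological replicates for each of 4 genotypes. GBS mice (hGFAP-cre::Ctnnb1(ex3)Fl/+SmoM2Fl/+) carried Cre with both alleles, and the labels call their samples tumors. GS mice (hGFAP-cre::SmoM2Fl/+) carried SmoM2, a Smoothened that signals without hedgehog ligand. GB mice (hGFAP-cre::Ctnnb1(ex3)Fl/+) carried a Ctnnb1 allele from which Cre removes exon 3, which leaves a beta-catenin that is not degraded. Control mice (Ctnnb1(ex3)Fl/+SmoM2Fl/+) carried both alleles without Cre, so an effect of Cre itself cannot be told apart from that of the alleles in a comparison with Control. All alleles were heterozygous, and the human GFAP promoter that drives Cre works in radial glia of the mouse forebrain, so cells outside that lineage keep unrecombined alleles. Values are on the log2 scale of RMA, where a difference of 1 is a doubling.

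Genes were tested if they exceeded the 40th percentile of an array in 3 arrays or more, which kept 64 of the 68 members among 14195 genes. Epha1, Efna3, Ntn5 and Sema3d lay below this filter, at means over the 12 arrays of 5.68, 6.05, 6.17 and 5.82. Of the 64, 58 lay above the filter in all arrays. Sema3e and Sema4a passed through the GS, GB and Control arrays alone, since all their GBS values lay below it, so their differences from GBS were in part fixed by the filter. A gene was called at an adjusted p under 0.05 in a limma fit over all 12 arrays and all genes, two-sided, with Benjamini-Hochberg adjustment, and every adjusted p below comes from that fit unless another is named.

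The arrays differed in ways that touch the members. GB replicate 2, GS replicate 3 and Control replicate 3 deviated from their groups together, with correlations of 0.739 to 0.833 between their deviations from the group means over all tested genes, and GB replicate 2 differed from the other GB arrays by a median absolute 0.36 over the tested members, against 0.09 to 0.22 for each of the other arrays. GBS replicate 1 deviated in the same direction, with correlations of 0.516 with GB replicate 2, 0.507 with GS replicate 3 and 0.446 with Control replicate 3, and it stays in the fits without the 3 deviating arrays. Those 3 arrays were picked by their deviation in these same data, so leaving them out lowers the estimated spread by construction. Adjusted p-values of limma without them describe that fit and are not further support for a gene. Olfactory and vomeronasal receptor genes, which are mostly silent in brain and so read background, had array medians of 4.84 to 4.92 in GBS, 4.88 to 5.23 in GS, 5.02 to 5.35 in GB and 5.12 to 5.23 in Control. GBS lay below GB and Control in every array at this level. A fit with the level as a covariate therefore cannot tell background from genotype there, whether a call is lost or gained. These medians are over 1178 such genes. The 205 of them that were tested, since they exceeded the filter in 3 arrays or more, had a median difference of -0.37 between GBS and Control. That difference may be in part fixed by the filter and need not equal the shift of the whole list. Small negative differences of members in GBS lie in its range, and the part of a background shift in them was not tested. Ptch1, a target of SHH signalling, averaged 9.5 in GBS, 8.55 in GS, 7.12 in GB and 7.12 in Control, and Axin2, a target of WNT signalling, 8.85 in GBS, 7.10 in GS, 7.80 in GB and 7.07 in Control. Xist was high in 2 GS and 2 GB arrays and in 0 GBS and 0 Control arrays, so comparisons with GS or GB are not matched for sex.

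Markers of several cell types differed between GBS and Control. The mean level of 14 neuron genes was 8.27, 7.76 and 8.59 in the GBS arrays, against 9.05, 9.04 and 8.76 in the Control arrays, and 0 of them rose and 5 fell. The mean level of 9 proliferation genes was 8.48 to 9.30 in GBS and 6.88 to 7.08 in Control, and 8 rose and 0 fell. Of 10 tested radial glia and progenitor genes 5 rose and 1 fell, and of 8 interneuron genes 0 rose and 3 fell. The list of 10 endothelium and pericyte genes had a mean level of 6.68 to 6.72 in GBS and 6.67 to 6.78 in Control, with 0 of 9 tested genes called by limma and 4 at an unadjusted p under 0.05. Of 6 oligodendrocyte lineage genes 2 fell, and of 5 microglia genes 0 were called by limma, with 2 at an unadjusted p under 0.05. Of all tested genes 38.8% had an unadjusted p under 0.05 in limma for this comparison. Limma called 11% of all tested genes higher and 4.35% lower, the shares to set beside the called marker counts in this paragraph. Forebrain identity genes were present in all groups, at a mean level of 7.87 to 8.08 in GBS and 7.37 to 7.53 in Control, with 2 of 4 called higher. The mean level of 7 meningeal and fibroblast genes was 7.0 to 7.18 in GBS and 6.56 to 6.81 in Control, with 1 of 5 tested genes called higher, by 3.79, and a median of -0.23. That of 6 choroid plexus genes was 6.36 to 6.80 in GBS and 6.27 to 7.14 in Control, with 1 of 5 called higher and changes of -1.53 to 2.38. The part of these cell types in the results below was not tested. In bulk tissue such as this, fewer cells of a type and less RNA per cell cannot be told apart.

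GBS against Control addresses what active Smoothened and stabilised beta-catenin do together. A few guidance genes rose strongly and a larger number fell slightly. Slit2 and Dcc rose more than 4-fold, Plxnc1 2.86-fold, Nrp2 2.11-fold and Sema6a 2.07-fold, while Sema3c fell by 1.22 and Unc5c by 0.73 on the log2 scale, and the other falls were of 0.45 or less. In all, 6 of the 64 tested members were called higher and 8 lower, where limma called 11% of all tested genes higher and 4.35% lower. By role, 2 of 32 ligands rose and 5 fell, and 4 of 32 receptors rose and 3 fell. The median change was -0.20 over the members and -0.10 over all tested genes, and 46 of the 64 differences were below 0, against 58.9% of all tested genes. The arrays of GBS and Control did not overlap for 38 members, 8 higher and 30 lower, against 64.6% of all tested genes, 28.8% higher and 35.7% lower, and for all 14 called members.

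The number of rises was 6 to 8 when any single array was left out, but that of falls depended on single arrays. It was 0, 1 and 2 without Control replicates 1, 2 and 3, 5, 1 and 4 without GBS replicates 1, 2 and 3, 5 without GS replicate 1 or 2, and 22 without GB replicate 2, which enters the comparison through the estimate of the spread alone. The share of all genes called lower was 0.803%, 1.18% and 0.937% without Control replicates 1, 2 and 3, 3.21%, 0.549% and 2.42% without GBS replicates 1, 2 and 3, 3.14% and 2.61% without GS replicates 1 and 2, and 20.2% without GB replicate 2. Without the 3 arrays that deviated together 8 members rose and 21 fell, where 23.5% and 18.9% of all genes were called.

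**Figure D1:**
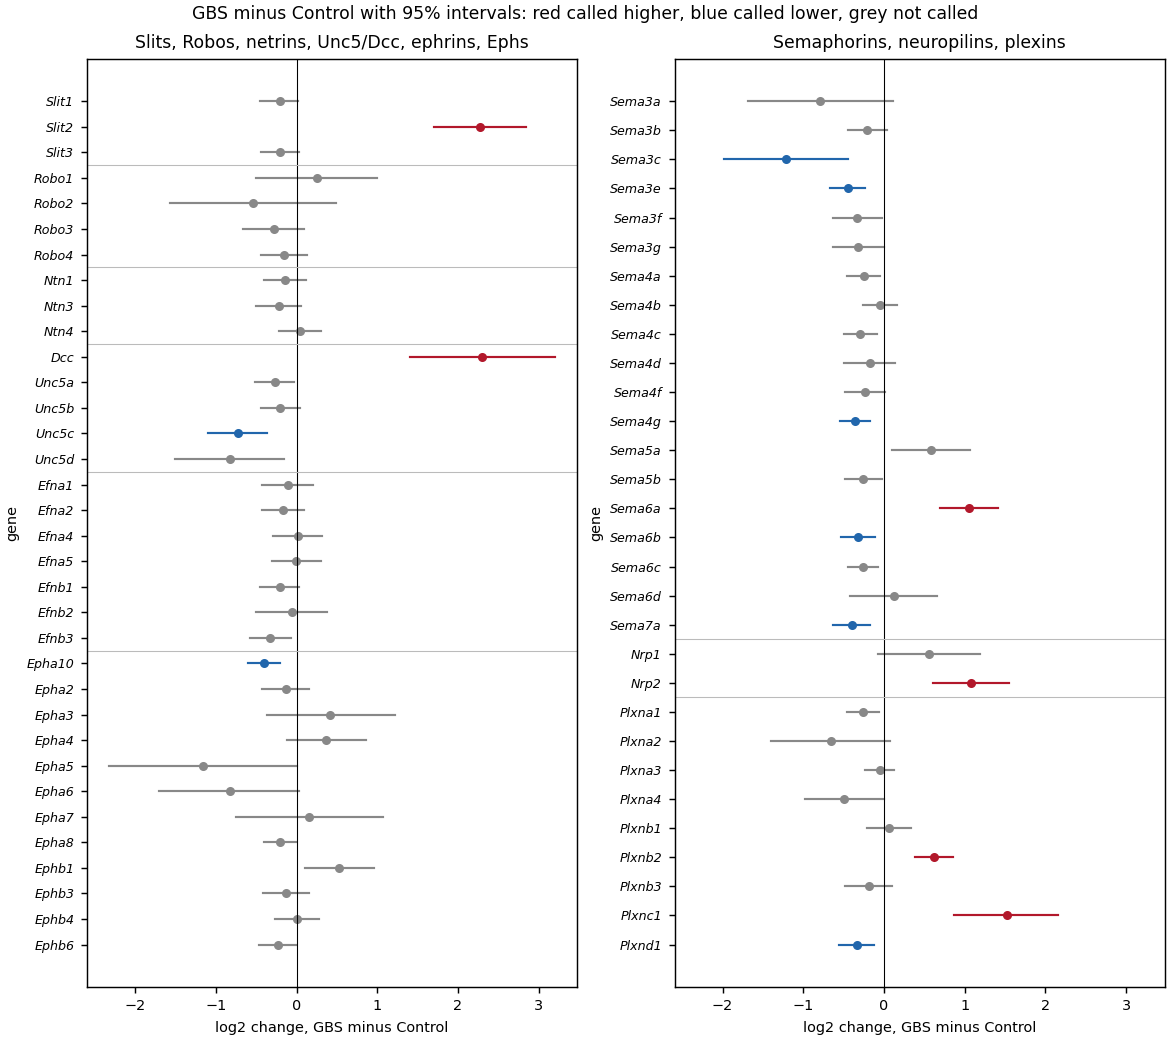
Log2 change of each of the 64 tested members, GBS minus Control, on the horizontal axis, with points for the estimate and lines for the 95% interval of the limma fit. The 6 genes called higher (red) lie between 0.62 and 2.30, and the 8 called lower (blue) between -1.22 and -0.32.

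The promoters of Slit2, Plxnc1, Nrp2 and Sema3c, genes with large called changes, are given so that the base composition around their starts and matches to the DNA motif of the TCF/LEF partners of beta-catenin can be seen. The windows run from 250 bases before to 50 after the start that RefSeq gives on GRCm38.p6, 5′ to 3′ on the strand of the gene. Capitals mark matches to CTTTGNN on either strand, where each N is A or T.
Slit2 (chr5:47982905-47983204, plus strand): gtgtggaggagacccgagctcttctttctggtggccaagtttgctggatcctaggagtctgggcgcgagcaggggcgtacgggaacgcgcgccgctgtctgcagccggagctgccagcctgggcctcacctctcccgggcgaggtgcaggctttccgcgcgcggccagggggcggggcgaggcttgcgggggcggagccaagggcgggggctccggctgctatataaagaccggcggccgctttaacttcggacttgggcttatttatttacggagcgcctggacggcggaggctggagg
Plxnc1 (chr10:94944796-94945095, minus strand): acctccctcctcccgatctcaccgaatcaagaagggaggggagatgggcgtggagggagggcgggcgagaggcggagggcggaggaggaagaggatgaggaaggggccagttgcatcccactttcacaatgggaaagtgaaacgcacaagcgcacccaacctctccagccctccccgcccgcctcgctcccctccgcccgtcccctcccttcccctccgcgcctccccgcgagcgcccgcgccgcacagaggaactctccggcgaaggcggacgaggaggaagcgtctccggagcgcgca
Nrp2 (chr1:62703067-62703366, plus strand): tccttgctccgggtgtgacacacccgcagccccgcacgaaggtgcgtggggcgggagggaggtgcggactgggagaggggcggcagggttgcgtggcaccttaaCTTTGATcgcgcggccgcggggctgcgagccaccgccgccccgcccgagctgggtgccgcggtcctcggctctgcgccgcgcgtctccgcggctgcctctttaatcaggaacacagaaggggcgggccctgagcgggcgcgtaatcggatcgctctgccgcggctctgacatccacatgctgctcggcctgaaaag
Sema3c (chr5:17574566-17574865, plus strand): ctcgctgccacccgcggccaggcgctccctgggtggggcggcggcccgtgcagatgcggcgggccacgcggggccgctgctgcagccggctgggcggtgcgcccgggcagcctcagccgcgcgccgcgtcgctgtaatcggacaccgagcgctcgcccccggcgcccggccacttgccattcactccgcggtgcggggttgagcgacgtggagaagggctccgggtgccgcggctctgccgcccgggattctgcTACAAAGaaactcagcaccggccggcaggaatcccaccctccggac
Nrp2 holds CTTTGAT 146 bases before its start, and Sema3c holds CTTTGTA on the opposite strand, with its first base in the window at position 5 of the transcript. Slit2 and Plxnc1 hold none of these letters in this window. Unc5c and Plxnb2, next in size of called change and not shown, hold none in theirs either. Of all 32851 promoter windows 16.9% hold such a match, and of the 74 windows of 58 members 8 do. The GLI motif GACCACCCA, bound by the transcription factors of the SHH pathway and also searched on both strands, was found in 0 of the 74 member windows and in 0.253% of all windows. A match is a string of letters and was not tested for binding.

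Among slits and their receptors 1 of the 7 genes tested was called, Slit2, a secreted ligand that repels Robo-bearing axons and cells. Slit2 was at 9.04, 9.42 and 9.08 in the GBS arrays, 7.46, 7.52 and 6.87 in GS, 7.58, 6.75 and 7.75 in GB, and 7.03, 6.68 and 7.02 in Control. All GBS arrays lay above every other array, and the GS and GB arrays overlapped with each other and with Control. Slit2 averaged 9.18 ± 0.211 in GBS and 6.91 ± 0.201 in Control (SD, n = 3 each), 4.82-fold higher (log2 2.27 ± 0.258, SE, 95% interval 1.70 to 2.84, adjusted p = 0.000412). Its relatives Slit1 and Slit3, ligands of the same receptors, had differences of -0.21 and -0.20 (adjusted p = 0.158 and 0.171). The main neuronal receptors of the slits did not pass the test either. Robo1 averaged 9.13 in GBS and 8.88 in Control, with an interval of the difference from -0.50 to 1.0, and Robo2 9.22 in GBS and 9.76 in Control (-1.57 to 0.49). Robo2 was below all Control arrays in GBS replicates 1 and 2 (9.18 and 9.05, against 9.36 to 10.13) and at 9.41 in replicate 3. It was called lower without the 3 deviating arrays (-0.74, adjusted p = 0.00491), 1 of which, GB replicate 2, had the lowest value of Robo2 at 7.65. Robo3, which keeps commissural axons from responding to slits before they cross the midline, and Robo4, a receptor of blood vessels, had differences of -0.28 and -0.15 (adjusted p = 0.215 and 0.350).

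Among the netrin receptors Dcc and Unc5c changed in opposite directions. Dcc mediates attraction to netrin-1, and Unc5c turns the response to the same ligand into repulsion. Dcc was at 10.25, 10.88 and 10.43 in GBS, 8.91, 9.08 and 8.36 in GS, 9.57, 7.86 and 9.55 in GB, and 8.61, 8.13 and 7.91 in Control. Every GBS array exceeded every other array, and GB replicate 2 stood far below the other GB arrays and below all Control arrays. The mean was 10.52 ± 0.325 in GBS and 8.22 ± 0.356 in Control (SD, n = 3 each), 4.92-fold higher (log2 2.30 ± 0.41, SE, adjusted p = 0.00536). Unc5c was at 7.06, 6.49 and 7.21 in GBS, 7.63, 7.43 and 7.37 in GS, 7.38, 7.33 and 7.58 in GB, and 7.69, 7.70 and 7.57 in Control. It was lowest in GBS replicate 2 and fell by 0.73 ± 0.166 on the log2 scale (SE, adjusted p = 0.0167), a call that ended without Control replicate 1 or 2 (adjusted p up to 0.0594 over all settings run, as for the other genes below). Unc5d, a repulsive receptor of migrating cortical neurons, was at 7.33, 6.91 and 7.68 in GBS and at 8.5, 7.97 and 7.94 in Control, without overlap. Its difference of -0.83 ± 0.309 (SE) had an adjusted p = 0.0851, and -0.93 with an adjusted p = 0.00683 without the 3 deviating arrays. Unc5a and Unc5b had differences of -0.27 and -0.20 (adjusted p = 0.0991 and 0.181). The 3 tested ligands did not pass the test. Ntn1 averaged 6.49 in GBS and 6.63 in Control, Ntn3 7.02 in GBS and 7.24 in Control, and Ntn4 7.06 in GBS and 7.02 in Control, with intervals of the differences within -0.50 to 0.30.

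**Figure D2:**
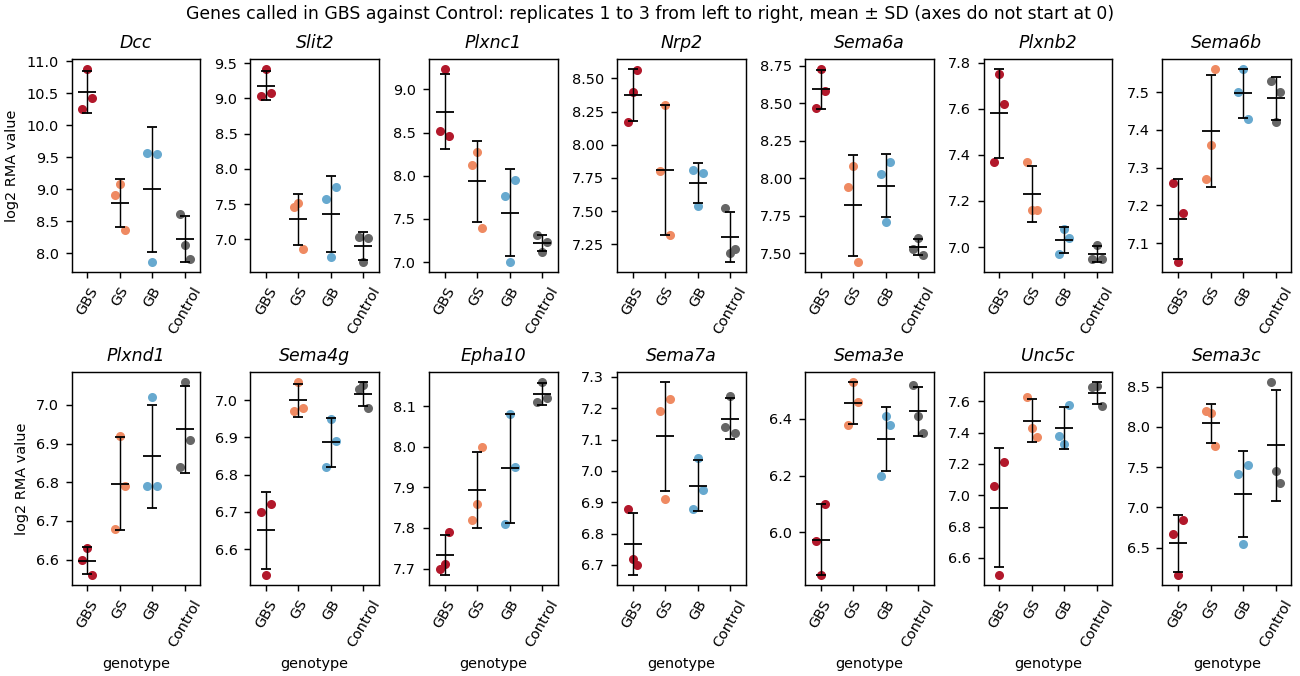
Log2 RMA value (vertical axis, not from 0) of the 14 members called in GBS against Control, by genotype. Points are arrays, replicates 1 to 3 from left to right, and black marks give the mean ± SD. In each panel the 3 GBS arrays lie apart from the 3 Control arrays, as for Slit2 at 9.04 to 9.42 in GBS and 6.68 to 7.03 in Control.

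Of 19 tested semaphorins 1 rose and 5 fell, with a median difference of -0.26. Sema6a, a transmembrane semaphorin that signals through plexins A2 and A4, was the one that rose. It was at 8.47, 8.73 and 8.58 in GBS, 7.94, 8.08 and 7.44 in GS, 8.03, 7.71 and 8.11 in GB, and 7.53, 7.60 and 7.49 in Control. The GBS arrays stood above all others, and GS replicate 3 was the lowest array of all. Sema6a averaged 8.59 ± 0.129 in GBS and 7.54 ± 0.056 in Control (SD, n = 3 each; log2 1.05 ± 0.162, SE, adjusted p = 0.00252). Its plexins had negative differences that did not pass the test, with Plxna2 at 8.03 in GBS and 8.69 in Control (adjusted p = 0.160) and Plxna4 at 8.52 in GBS and 9.01 in Control (adjusted p = 0.128). Both were called lower without the 3 deviating arrays, with differences of -0.83 for Plxna2 (adjusted p = 0.0217) and -0.67 for Plxna4 (adjusted p = 0.00378), in a fit that called 18.9% of all genes lower. The related Sema6b fell slightly, at 7.26, 7.05 and 7.18 in GBS, 7.27, 7.36 and 7.56 in GS, 7.50, 7.56 and 7.43 in GB, and 7.53, 7.42 and 7.50 in Control (log2 -0.32, adjusted p = 0.0474, against a median of -0.37 over the 205 olfactory and vomeronasal receptor genes that passed the filter). That call ended without any one array other than GB replicate 2 and GS replicate 3, without the filter, under quantile normalization and with the receptor-gene level as a covariate, with adjusted p up to 0.398.

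The secreted class 3 semaphorins act through neuropilins and A-type plexins, except Sema3e, which binds plexin D1 directly. Sema3c, which draws callosal axons in the mouse, was at 6.67, 6.16 and 6.84 in GBS, 8.2, 8.17 and 7.76 in GS, 7.42, 6.55 and 7.53 in GB, and 8.56, 7.45 and 7.30 in Control. GBS lay below GS and Control in every array and overlapped with GB through GB replicate 2. The mean was 6.56 ± 0.355 in GBS and 7.77 ± 0.691 in Control (SD, n = 3 each; log2 -1.22 ± 0.348, SE, adjusted p = 0.0398). The call ended under quantile normalization, with arrays centred on their medians, and without any one GBS or Control array or GS replicate 1 or 2 (adjusted p up to 0.174). Sema3e was at 5.97, 5.85 and 6.10 in GBS, 6.38, 6.53 and 6.46 in GS, 6.20, 6.41 and 6.38 in GB, and 6.52, 6.41 and 6.35 in Control. GBS was below every other array, and the difference from Control was -0.45 ± 0.0978 (SE, adjusted p = 0.0132), a call lost with the receptor-gene level as a covariate (adjusted p = 0.0541) and also without Control replicate 1 or GBS replicate 2. All GBS values of Sema3e lay below the filter, so this difference was in part fixed by it. Its receptor Plxnd1, best known from blood vessels, was also slightly lower, at 6.60, 6.63 and 6.56 in GBS, 6.68, 6.92 and 6.79 in GS, 6.79, 7.02 and 6.79 in GB, and 6.84, 7.06 and 6.91 in Control (log2 -0.34, adjusted p = 0.0433). That call ended without any one array other than GB replicate 2 and GS replicate 3, under quantile normalization, when arrays were centred on their medians and with the receptor-gene level as a covariate (adjusted p up to 0.222), and the endothelium and pericyte genes had a median difference of -0.10 beside it.

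Sema3a, the founding repellent of the class, was at 7.30, 6.75 and 7.81 in GBS and 8.32, 8.25 and 7.64 in Control, groups that overlapped. Its difference of -0.79 did not pass (adjusted p = 0.163), but did without the 3 deviating arrays (-1.0, adjusted p = 0.00627). Nrp2, the neuropilin that binds Sema3f, rose. It was at 8.17, 8.40 and 8.56 in GBS, 7.80, 8.30 and 7.32 in GS, 7.81, 7.54 and 7.79 in GB, and 7.52, 7.18 and 7.21 in Control. GBS lay above Control and GB in all arrays and overlapped with GS replicate 2. Nrp2 averaged 8.38 ± 0.199 in GBS and 7.30 ± 0.187 in Control (SD, n = 3 each; log2 1.08 ± 0.214, SE, adjusted p = 0.00895), and its call ended with the receptor-gene level as a covariate (0.68, adjusted p = 0.0783). Its ligand Sema3f did not pass the test (-0.33, adjusted p = 0.106). Nrp1, the neuropilin that binds Sema3a and also VEGF, was at 7.63, 7.66 and 8.13 in GBS and at 7.78, 6.67 and 7.29 in Control, with an interval of the difference from -0.08 to 1.19.

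Plxnc1 and Plxnb2 rose among the plexins. Plxnc1, the receptor of Sema7a, was at 8.52, 9.24 and 8.46 in GBS, 8.13, 8.28 and 7.40 in GS, 7.76, 7.0 and 7.95 in GB, and 7.31, 7.12 and 7.23 in Control. GBS stood above all other arrays, and every GS and GB array but GB replicate 2 stood above Control. The mean was 8.74 ± 0.432 in GBS and 7.22 ± 0.0961 in Control (SD, n = 3 each; log2 1.52 ± 0.293, SE, adjusted p = 0.00798). Its ligand Sema7a, held on the membrane by a lipid anchor, fell slightly, at 6.88, 6.72 and 6.7 in GBS, 7.19, 6.91 and 7.23 in GS, 6.88, 7.04 and 6.94 in GB, and 7.14, 7.24 and 7.12 in Control (log2 -0.40 ± 0.103, SE, adjusted p = 0.0282). The call of Sema7a ended without any one Control array or GBS replicate 2 or 3 and with the receptor-gene level as a covariate (adjusted p up to 0.162).

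Plxnb2, a receptor of class 4 semaphorins that is made by neural progenitors in the mouse, was at 7.37, 7.75 and 7.62 in GBS, 7.37, 7.16 and 7.16 in GS, 6.97, 7.08 and 7.04 in GB, and 6.95, 7.01 and 6.95 in Control. GBS lay above GB and Control in every array, and GBS replicate 1 equalled GS replicate 1 to the second decimal. The mean was 7.58 ± 0.192 in GBS and 6.97 ± 0.0341 in Control (SD, n = 3 each), 1.53-fold higher (log2 0.62 ± 0.106, SE, adjusted p = 0.00471). Plxnb1 and Plxnb3, receptors of the same class, had differences of 0.06 and -0.19 (adjusted p = 0.692 and 0.266). Of its ligand class, Sema4g fell, at 6.7, 6.53 and 6.72 in GBS, 6.97, 7.05 and 6.98 in GS, 6.82, 6.95 and 6.89 in GB, and 7.03, 7.04 and 6.98 in Control (log2 -0.36 ± 0.0815, SE, adjusted p = 0.0155), until any one Control array or GBS replicate 2 was left out. Sema4c and Sema4a had differences of -0.30 and -0.25 (adjusted p = 0.0519 and 0.085), and Sema4b, Sema4d and Sema4f of -0.05 to -0.23. Sema5a, a semaphorin with thrombospondin repeats, was at 7.03, 7.96 and 7.32 in GBS against 6.98, 6.73 and 6.85 in Control, and its difference of 0.58 did not pass (adjusted p = 0.0879). It did without GBS replicate 1 (0.79), without GB replicate 2 or without the 3 deviating arrays.

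Of 7 tested ephrins limma called 0, with 1 at an unadjusted p under 0.05, and differences ranged from -0.33 for Efnb3 (adjusted p = 0.0787) to 0.02 for Efna4. Efnb2, a ligand of arteries and of the ventricular zone, averaged 8.25 in GBS and 8.30 in Control, and its receptor Ephb4, known from veins, 6.72 in both. Of 12 tested Eph receptors 0 rose and 1 fell in limma, with 4 at an unadjusted p under 0.05, as had 38.8% of all tested genes. The one that fell was Epha10, a receptor whose kinase domain lacks catalytic activity, at 7.70, 7.71 and 7.79 in GBS, 7.82, 7.86 and 8.0 in GS, 7.81, 8.08 and 7.95 in GB, and 8.11, 8.16 and 8.12 in Control. GBS lay below every other array and Control above all (log2 -0.40 ± 0.0903, SE, adjusted p = 0.0167), and the call ended without any one Control array or GBS replicate 2 and with the receptor-gene level as a covariate (adjusted p up to 0.106). Larger differences came with larger spread. Epha5, a receptor of forebrain neurons, was at 7.85, 6.67 and 8.42 in GBS and 9.19, 8.84 and 8.39 in Control (-1.16 ± 0.527, SE, adjusted p = 0.130), and Epha6 at 5.85, 5.25 and 6.35 in GBS against 6.96, 6.46 and 6.52 in Control (-0.83, adjusted p = 0.138). Both were called lower without the 3 deviating arrays, with differences of -1.37 for Epha5 (adjusted p = 0.0146) and -0.89 for Epha6 (adjusted p = 0.0169). Epha6 exceeded the filter in 9 arrays, and its values in GBS replicates 1 and 2 lay below the filter levels of 6.24 and 6.18 there. Ephb1, which steers axons away from the midline in the optic chiasm, was at 7.68, 8.28 and 7.77 in GBS and 7.37, 7.54 and 7.23 in Control, without overlap (0.53 ± 0.197, SE, adjusted p = 0.085).

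Of the 6 genes that rose in GBS against Control 5 were highest in GBS replicate 2, and Nrp2 in replicate 3. Of the 8 that fell 5 were lowest in GBS replicate 2 (Sema3c, Sema3e, Sema4g, Sema6b and Unc5c), Sema7a and Plxnd1 in replicate 3 and Epha10 in replicate 1. GBS replicate 2 also had the lowest neuron marker level of the 3 GBS arrays, at 7.76 against 8.27 and 8.59, and the highest proliferation marker level, at 9.30 against 8.80 and 8.48. The part of cell type makeup in these values was not tested.

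**Figure D3:**
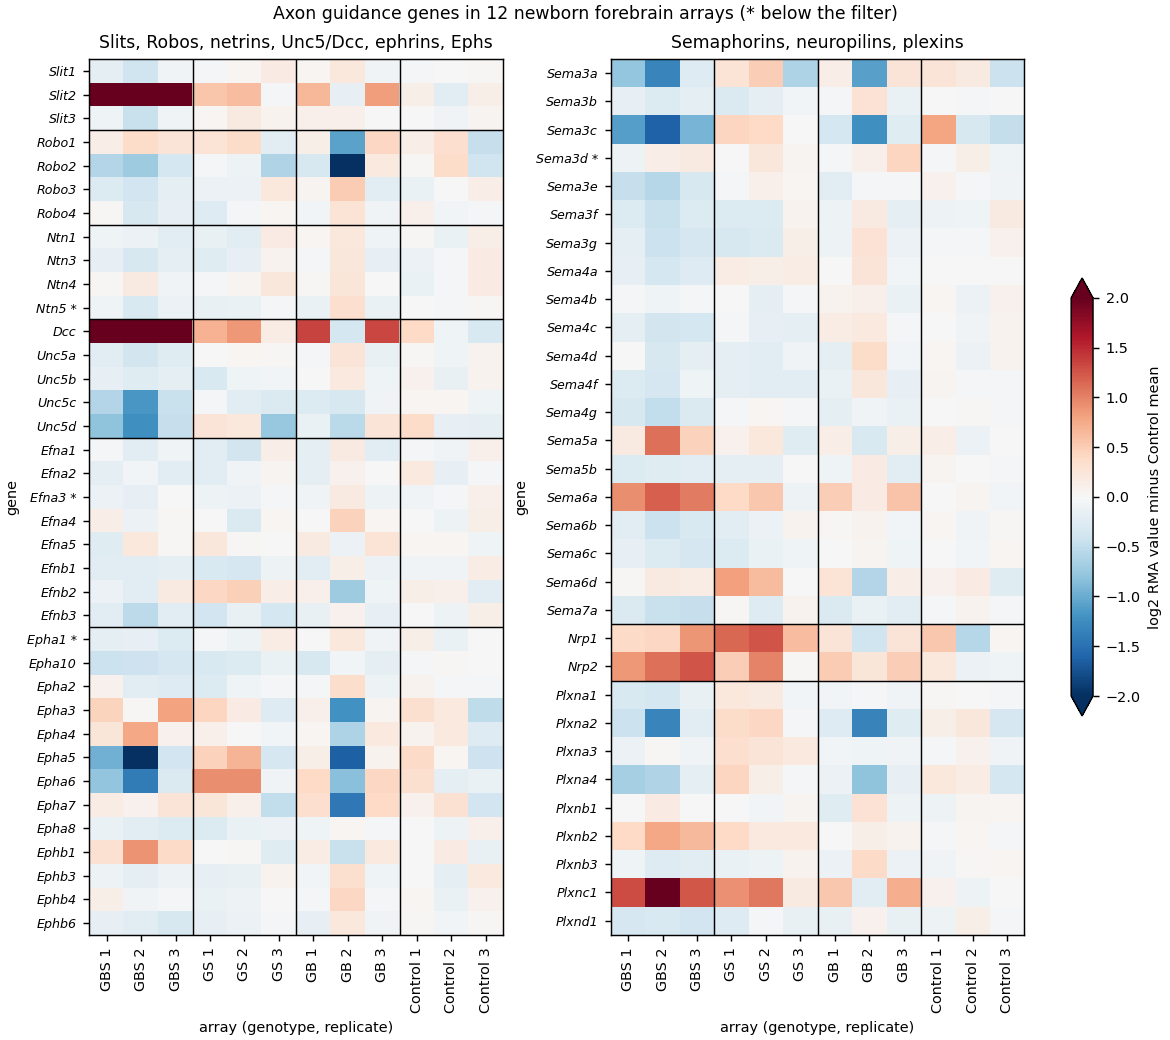
Log2 RMA value of all 68 members in each of the 12 arrays, minus the mean of the 3 Control arrays, with genes down the page by family, arrays across by genotype, and asterisks for the 4 genes below the filter. Colours stop at -2 and 2. Slit2 and Dcc are dark red in all GBS arrays, and GB replicate 2 is blue for Robo2, Epha5 and Epha7 and pale red for many other genes.

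GBS against GB asks what SmoM2 adds to stabilised beta-catenin. Slit2, Dcc, Plxnc1, Sema6a and Plxnb2 rose and Sema4c, Sema3e, Sema6b and Sema4a fell, 5 and 4 of the 64, where 9.6% of all genes were called higher and 3.12% lower. Slit2 was 3.53-fold higher in GBS (log2 1.82 ± 0.258, SE, adjusted p = 0.00247) and Plxnb2 1.47-fold (adjusted p = 0.0111). Dcc was 2.87-fold higher (adjusted p = 0.0389), Plxnc1 2.24-fold (adjusted p = 0.031) and Sema6a 1.56-fold (adjusted p = 0.0311). Sema4c, at 6.57, 6.40 and 6.41 in GBS and 6.91, 6.95 and 6.74 in GB, had a log2 change of -0.41 (adjusted p = 0.021). Sema3e fell by 0.36 (adjusted p = 0.0404), Sema6b by 0.34 (adjusted p = 0.0463) and Sema4a by 0.32 (adjusted p = 0.0483). Sema4a was at 6.18, 5.99 and 6.08 in GBS, 6.49, 6.45 and 6.48 in GS, 6.34, 6.59 and 6.28 in GB, and 6.33, 6.34 and 6.34 in Control, so GBS was the lowest group in every array. For Sema4a as for Sema3e this was in part fixed by the filter. The arrays did not overlap for 32 of the 64 members, against 47.9% of all genes. With GBS and GB alone in the fit limma called 0 members, 0.542% of all genes higher and 0% lower, and Slit2 had an adjusted p = 0.0504. When arrays were centred on their medians 5 rose and 2 fell, where 9.3% and 1.8% of all genes were called. Calls of Slit2 and Plxnb2 held without any single array. That of Plxnc1 ended without GB replicate 2 or GBS replicate 2, that of Sema4c without GBS replicate 2 or 3, and that of Sema6a without Control replicate 1, GB replicate 2 or GBS replicate 2 or 3. That of Dcc ended without any one Control or GBS array or GS replicate 1 or 2, that of Sema3e without any one array but GB replicate 1, GBS replicate 3 and GS replicate 3, that of Sema6b without any one but GB replicate 3 and GS replicate 3, and that of Sema4a without any one but GB replicate 3. Over all settings run the adjusted p reached 0.349 for Dcc, 0.236 for Plxnc1 and 0.192 for Sema6a. No member was called lower without GBS replicate 2, where 0.176% of all genes were. The rises numbered 3 without Control replicate 1, GB replicate 2 or GBS replicate 3 and 2 without GBS replicate 2, with 6.52%, 6.88%, 5.75% and 2.79% of all genes called higher, and the falls numbered 1 or 2 without any one array other than those of GB replicate 3, GS replicate 3 and GBS replicate 2, with 1.14% to 2.05% of all genes called lower. Without the 3 deviating arrays 6 rose and 9 fell, where 17.1% and 7.09% of all genes were called, with Nrp2 added to the rises and Epha5, Epha6, Sema3a, Sema3c, Unc5c and Unc5d to the falls.

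GBS against GS asks what stabilised beta-catenin adds to SmoM2. Slit2, Dcc and Sema6a rose and Sema3c, Sema3e, Sema4a, Sema4g, Plxna1 and Plxna3 fell, 3 and 6 of the 64, where 3.56% and 1.51% of all genes were called. Slit2 was 3.72-fold higher in GBS (log2 1.89, adjusted p = 0.00212), Dcc 3.33-fold (adjusted p = 0.0354) and Sema6a 1.71-fold (adjusted p = 0.0202). Sema3c had the largest called fall, by 1.49 ± 0.348 on the log2 scale (SE, adjusted p = 0.0348). Sema3e fell by 0.48 (adjusted p = 0.0174), Sema4a by 0.39 (adjusted p = 0.0397) and Sema4g by 0.35 (adjusted p = 0.0346). Plxna1, a signalling partner of neuropilins, was at 7.52, 7.47 and 7.67 in GBS against 8.03, 8.0 and 7.77 in GS, with 7.76, 7.78 and 7.75 in GB and 7.85, 7.81 and 7.80 in Control (log2 -0.38, adjusted p = 0.0387). Plxna3, the plexin that pairs with Nrp2 for Sema3f, was at 7.27, 7.41 and 7.31 in GBS against 7.72, 7.64 and 7.58 in GS (log2 -0.32, adjusted p = 0.0483). Plxna3 is on the X chromosome, and high Xist was read in 2 GS, 2 GB, 0 GBS and 0 Control arrays. Plxna3 averaged 7.31 in GB and 7.39 in Control. The part of sex in its difference between GBS and GS was not tested. The arrays did not overlap for 26 members, against 28.9% of all genes.

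The counts against GS depended on single arrays as well. The rises numbered 1 without GBS replicate 2 or 3 and 5 without GB replicate 2, with 1.89%, 3.03% and 7.75% of all genes called higher. The falls numbered 13 without GB replicate 2, 0 without GBS replicate 2 or GS replicate 2, 1 without GBS replicate 1, GS replicate 1 or Control replicate 2, 2 without Control replicate 1 or 3, and 3 without GB replicate 1 or 3. The share of all genes called lower was 4.09% without GB replicate 2, 0.331% and 0.317% without GBS replicate 2 and GS replicate 2, and 0.359% to 1.19% without each of the other 7 named. Without the 3 deviating arrays 4 rose and 15 fell, where 8.2% and 8.77% of all genes were called. Epha6 was then the largest added fall (-1.76, adjusted p = 0.00101), followed by Epha5 (-1.73, adjusted p = 0.00826) and Sema3a (-1.17, adjusted p = 0.0052). In GBS replicates 1 and 2 Epha6 lay below the filter. Slit2 was called without any single array, Sema6a until GBS replicate 2 or 3 was left out, and Sema3e until GBS replicate 2 or GS replicate 2 was. The call of Sema3c ended without any one GBS array, GS replicate 1 or 2 or Control replicate 2, and that of Dcc without any one array other than those of GB. That of Plxna1 ended without any one but GB replicate 2, GBS replicate 3 and GS replicate 3, that of Sema4g without any one but GB replicate 1 or 2 and GBS replicate 3, that of Sema4a without any one but GB replicate 2 or 3, and that of Plxna3 without any one but GB replicate 2. Over all settings run the adjusted p reached 0.169 for Dcc and 0.168 for Sema3c. Slit2, Dcc, Sema6a and Sema3e were the 4 members called in all 3 comparisons of GBS. The differences of Sema3e were in part fixed by the filter. The 3 comparisons share the GBS arrays, so the calls are not independent of each other.

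The single alleles were compared with Control on their own. In GB against Control limma called 0 members on all 12 arrays and 0% of all genes, with 1 member and 1.1% of all genes at an unadjusted p under 0.05. The lowest unadjusted p among the members were those of Sema6a (0.41, unadjusted p = 0.0286), Sema7a (-0.21, unadjusted p = 0.0624) and Epha10 (-0.18, unadjusted p = 0.0689), with an adjusted p of 1.0 for each. Dcc was at 9.57 and 9.55 in GB replicates 1 and 3, above all Control arrays (7.91 to 8.61), and at 7.86 in GB replicate 2. Dcc was the only member called without the 3 deviating arrays, 1.19 ± 0.195 higher (SE, adjusted p = 0.0457), where 0.176% of all genes were called higher and 0.00704% lower. Slit2 then stood 0.81 higher (adjusted p = 0.0905). That fit has 2 arrays each of GB, GS and Control.

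In GS against Control limma also called 0 members on all 12 arrays, where 0.0211% of all genes were called higher and 0% lower, and 8 members and 5.91% of all genes had an unadjusted p under 0.05. The lowest unadjusted p were those of Nrp1 (1.01, unadjusted p = 0.0051), Plxna3 (0.26, unadjusted p = 0.00782) and Epha10 (-0.24, unadjusted p = 0.0234), each with an adjusted p = 0.645. Nrp1 was at 8.39, 8.5 and 7.87 in GS and at 7.78, 6.67 and 7.29 in Control, without overlap. Without the 3 deviating arrays 6 members were called higher and 0 lower, where 9.86% and 2.21% of all genes were called. These were Nrp1 (1.22, adjusted p = 0.0247), Plxnc1 (0.99, adjusted p = 0.0209), Nrp2 (0.70, adjusted p = 0.0311), Slit2 (0.64, adjusted p = 0.0251), Sema6d (0.60, adjusted p = 0.0109) and Sema6a (0.44, adjusted p = 0.0276). Sema6d, a transmembrane semaphorin of the same class as Sema6a, was at 8.33, 8.15 and 7.51 in GS and 7.60, 7.67 and 7.27 in Control. Same-numbered arrays of GS and Control deviated from their group means together in all 3 pairs, with correlations of 0.337, 0.426 and 0.739. Differently numbered arrays did so too, with 0.557 for GS replicate 1 with Control replicate 2 and 0.381 for GS replicate 2 with Control replicate 1. These correlations therefore do not show that equal numbers mark pairs. With GS and Control alone in the fit and the replicate number as a block, an alternative chosen after seeing the data, 6 members were called higher and 0 lower, where 13.1% and 2.36% of all genes were called. These were Nrp1 (1.01, adjusted p = 0.012), Dcc (0.56, adjusted p = 0.0146), Plxnc1 (0.71, adjusted p = 0.0149), Sema6d (0.48, adjusted p = 0.0152), Efnb2 (0.34, adjusted p = 0.0217) and Epha6 (0.60, adjusted p = 0.031). The same fit without the block called 0 members and 0.0211% of all genes higher.

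**Figure D4:**
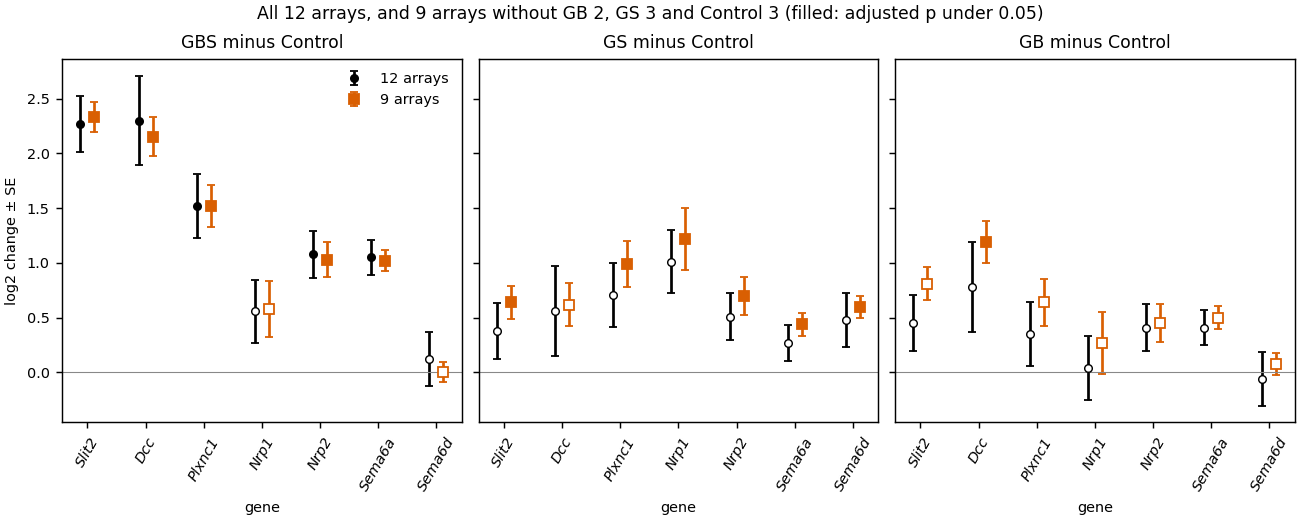
Log2 change ± SE (vertical axis) of 7 genes, chosen after their values were seen, in GBS, GS and GB, each minus Control. Black circles are the fit on 12 arrays and orange squares that on 9 arrays without GB replicate 2, GS replicate 3 and Control replicate 3, filled where the adjusted p is under 0.05. Slit2 stands at 2.27 and 2.33 in GBS and at 0.64 in GS in the fit on 9 arrays.

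Whether both alleles together differ from the sum of their single effects on the log2 scale, a product of folds, was tested by subtracting the difference of GB from Control from that of GBS from GS. Control alone lacked Cre, so an effect of Cre itself enters this contrast and cannot be told apart from an interaction of the alleles. Sex enters it too, since Xist was high in 2 GS and 2 GB arrays and in 0 GBS and 0 Control arrays. The part of sex was not tested. Limma called 0 members on all 12 arrays, where 0.324% of all genes were called higher and 0.00704% lower, and 7 members and 8.16% of all genes had an unadjusted p under 0.05. Slit2 came closest, with an excess of 1.44 ± 0.364 (SE, 95% interval 0.64 to 2.25, unadjusted p = 0.00228, adjusted p = 0.207), followed by Sema4a (-0.46, adjusted p = 0.296) and Sema3e (-0.39, adjusted p = 0.466). All GBS values of Sema4a and Sema3e lay below the filter, so their negative values here were in part fixed by it. Without the 3 deviating arrays 1 member had a positive and 2 a negative interaction, where 0.845% and 2.06% of all genes were called. These were Slit2 (0.87, adjusted p = 0.0467), Epha6 (-2.10, adjusted p = 0.0202) and Sema6d (-0.69, adjusted p = 0.029). On all 12 arrays the 3 values had the same direction, at 1.44 for Slit2, -1.42 for Epha6 and -0.30 for Sema6d. Epha6 lay below the filter in GBS replicates 1 and 2.

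Other genes of the guidance machinery were read from 2 lists. Of 33 tested genes for other cues, receptors and adhesion molecules 6 rose and 3 fell in GBS against Control, with a median of -0.18, and of 51 tested genes of growth cone signalling 4 rose and 6 fell, with a median of 0.01, where 11% of all genes were called higher and 4.35% lower. Cxcr4, a chemokine receptor that steers migrating interneurons and Cajal-Retzius cells, rose by 2.22 ± 0.159 on the log2 scale (SE, adjusted p = 2.94e-05). Wnt5a, a WNT that repels axons, rose by 1.5 (adjusted p = 0.000755). Against them Tnr, an extracellular matrix glycoprotein, fell by 0.53 (adjusted p = 0.00798), and Cntn2, an adhesion molecule of growing axons, by 0.47 (adjusted p = 0.00955). In growth cone signalling Dock1, an activator of Rac downstream of Dcc, rose by 1.49 (adjusted p = 3.24e-05), and the adaptor gene Nck1 by 1.21 (adjusted p = 0.0127). Trim67, a ligase of the netrin pathway that binds Dcc, fell by 0.78 (adjusted p = 0.000387), and Rnd1, a GTPase that acts at plexins, by 0.62 (adjusted p = 0.00556). Cxcr4, Wnt5a, Dock1 and Trim67 were called in the same direction against GB and against GS, comparisons that share the GBS arrays.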

How the data were processed

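RNA from 12 forebrain samples was hybridised to Affymetrix arrays. Per the submitters' processing notes, the authors summarised and normalised them by RMA (Affymetrix Expression Console); its version and the probe set library are not stated in any source used. The deposited values are log2 values, a scale read from their range of 2.82 to 13.83. RMA makes array medians alike, so a change shared by most genes would not be seen. Genes were named from the platform annotation: of 35556 probe sets 21789 had 1 gene symbol, 1621 several and 12146 none listed, and 21698 of those with 1 symbol matched RefSeq for GRCm38.p6. Each gene was taken by its probe set of highest mean, and for 5 members with several the others are in the alternatives.

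The members and lists were chosen with earlier results of these data known. Genes above the 40th percentile of an array in at least 3 arrays were fitted with limma 3.58.1 in R 4.3.3, with 4 group means, 8 residual and 2.9 prior degrees of freedom, Benjamini-Hochberg adjustment over 14195 genes and a threshold of 0.05. The script was tested on simulated data. Named were called members (in order of adjusted p), the 3 lowest p where a comparison had none, binding partners and counter-examples within a family, and the 4 called genes of lowest adjusted p in each other list. Genes called only without the 3 deviating arrays were chosen after their values were seen. Deviations of same-numbered arrays from their group means correlated at -0.818 to 0.739. They were over 0.1 in all 3 pairs for GS with Control alone, so that comparison is also given with the replicate number as a block, and in other comparisons the numbers were not taken as pairs. Differently numbered arrays of GS and Control correlated at up to 0.557, so a pairing by number is not shown there either. Labels call replicates biological but give no litter or batch, so p-values measure the spread between these arrays. Alternatives changed the filter, normalization, variance model, arrays and covariates. The number of arrays limits the precision. Tables were handled in Python 3.11.15 with pandas 2.3.3.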

Additional observations from a re-analysis of the deposited data

How the results depend on the processing

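Counts of members called (higher and lower) were recomputed under 23 settings, and for GS against Control under 1 more chosen after seeing the data, and 0 of the called genes changed direction. The arrays compared did not overlap for any called member. Settings that only left out arrays could therefore not change a direction, and their keeping it is no support. The numbers of rises in GBS against Control were 6 to 8 without single arrays and the falls 0 to 22. Against GB the ranges were 2 to 6 higher and 0 to 5 lower, against GS 1 to 5 higher and 0 to 13 lower. GB against Control, GS against Control and the interaction kept 0 calls without any single array. With the replicate block, GBS had 6 higher and 6 lower against Control, where 7% and 1.34% of all genes were called. It had 2 and 1 against GB (4.61% and 0.5% of all genes), and 1 and 1 against GS (2.14% and 0.62%). Sema6b and Sema7a lost their call against Control in that fit. The block on GS and Control arrays alone gave 6 rises in GS (13.1% of all genes higher). With only the groups compared in the fit, falls against Control numbered 24 (21.8% of all genes lower), calls against GB 0 and 0 (0.542% higher, 0% lower), and falls against GS 2 (0.888%). Without the 3 deviating arrays falls numbered 21 against Control, 9 against GB and 15 against GS (18.9%, 7.09% and 8.77% of all genes). Rises then numbered 1 in GB and 6 in GS against Control (0.176% and 9.86%), and interactions 1 higher and 2 lower (0.845% and 2.06%). The receptor gene level as a covariate gave 12 falls and 5 rises against Control (7.41% and 5.54% of all genes), of which 8 were among the 14 called without it. Against GB it gave 2 rises and 4 falls (3.66% and 3.75% of all genes), and against GS 3 rises and 15 falls (5.98% and 8.91%). With that level in the fit, interactions were 1 higher and 2 lower (1.04% and 0.747%). That level did not overlap between GBS and Control, so this setting cannot separate background from genotype. Quantile normalization gave 3 rises and 2 falls against GB (6.69% and 1.95% of all genes). No filter gave 2 falls there (2.35%), the 60th percentile 1 fall (3.4%) and centring 2 falls (1.8%). Against GS centring gave 3 falls (0.986%). At an adjusted p under 0.01 falls were 0 in each GBS comparison, and rises 6 against Control, 1 against GB and 1 against GS. The cause of these changes was not tested. With 3 arrays a group, differences of about 0.3 passed only for genes of small spread, and dim genes near background have compressed differences. An effect of Cre itself, sex and cell type makeup were not modelled.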
